A study of Mus musculus with 9 samples.

Results

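A set of 9 G protein-coupled receptors through which hormones, nutrients and nerves adjust insulin and glucagon release was examined in mouse islets: *Glp1r*, *Gipr*, *Gcgr*, *Ffar1*, *Gpr119*, *Adra2a*, *Chrm3*, *Sstr3* and *Galr1*. The set was fixed by name, and a receptor entered through array probe sets that the platform annotation pairs with that 1 gene symbol. By this rule 6 of the 9 were measured, in 9 probe sets, out of 18193 genes. *Ffar1*, *Gpr119* and *Adra2a* were not analysed here.

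The tested islets came from βRapKO mice (KO), homozygous for a floxed *Raptor* allele and carrying Cre driven by the rat insulin promoter. Their WT littermates were homozygous for the same floxed allele and had no Cre, so that Cre itself and the loss of *Raptor* cannot be told apart. All mice were male, 8 weeks old and labelled C57BL/6, while the methods describe the Cre line as of mixed background and the floxed line as C57BL/6J. Each array held islet RNA pooled from 5 mice of 1 genotype, with 4 KO pools and 5 WT pools, and pools are the replicates.

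Receptors of this kind change secretion by switching a heterotrimeric G protein. Those coupled to Gs raise cAMP and amplify glucose-stimulated insulin release, those coupled to Gq act through phospholipase C and calcium, and those coupled to Gi lower cAMP and restrain release. The incretins GLP-1 and GIP, released from the gut after a meal, act through Gs receptors of the class B family, to which the glucagon receptor also belongs. In islets, acetylcholine acts mainly through the Gq-coupled muscarinic receptor M3, and somatostatin and galanin act through Gi.

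Among these receptors, *Gcgr* rose and *Gipr* fell in KO islets. *Gcgr* was 1.72-fold higher, and *Gipr* was 2.38-fold lower. With 1 pool left out the call of *Gcgr* was kept in 9 of 9 fits and that of *Gipr* in 2. The other 4 receptors, *Glp1r*, *Chrm3*, *Sstr3* and *Galr1*, did not pass the test, and the interval of *Chrm3* was the widest of the 6. Tests were limma fits of log2 signal across all tested genes, two-sided, called at a Benjamini-Hochberg adjusted p under 0.05. All 6 receptors passed the filter on dim signals, which left 13644 genes. Of these genes 501 (3.67%) rose and 359 (2.63%) fell, 6.3% in either direction, so that 2 called members of 6 is a small count to read against this background. The median difference of the 6 was -0.34 on the log2 scale, against 0.04 over all tested genes, and 3 of the 6 differences were above 0.

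**Figure D1:**
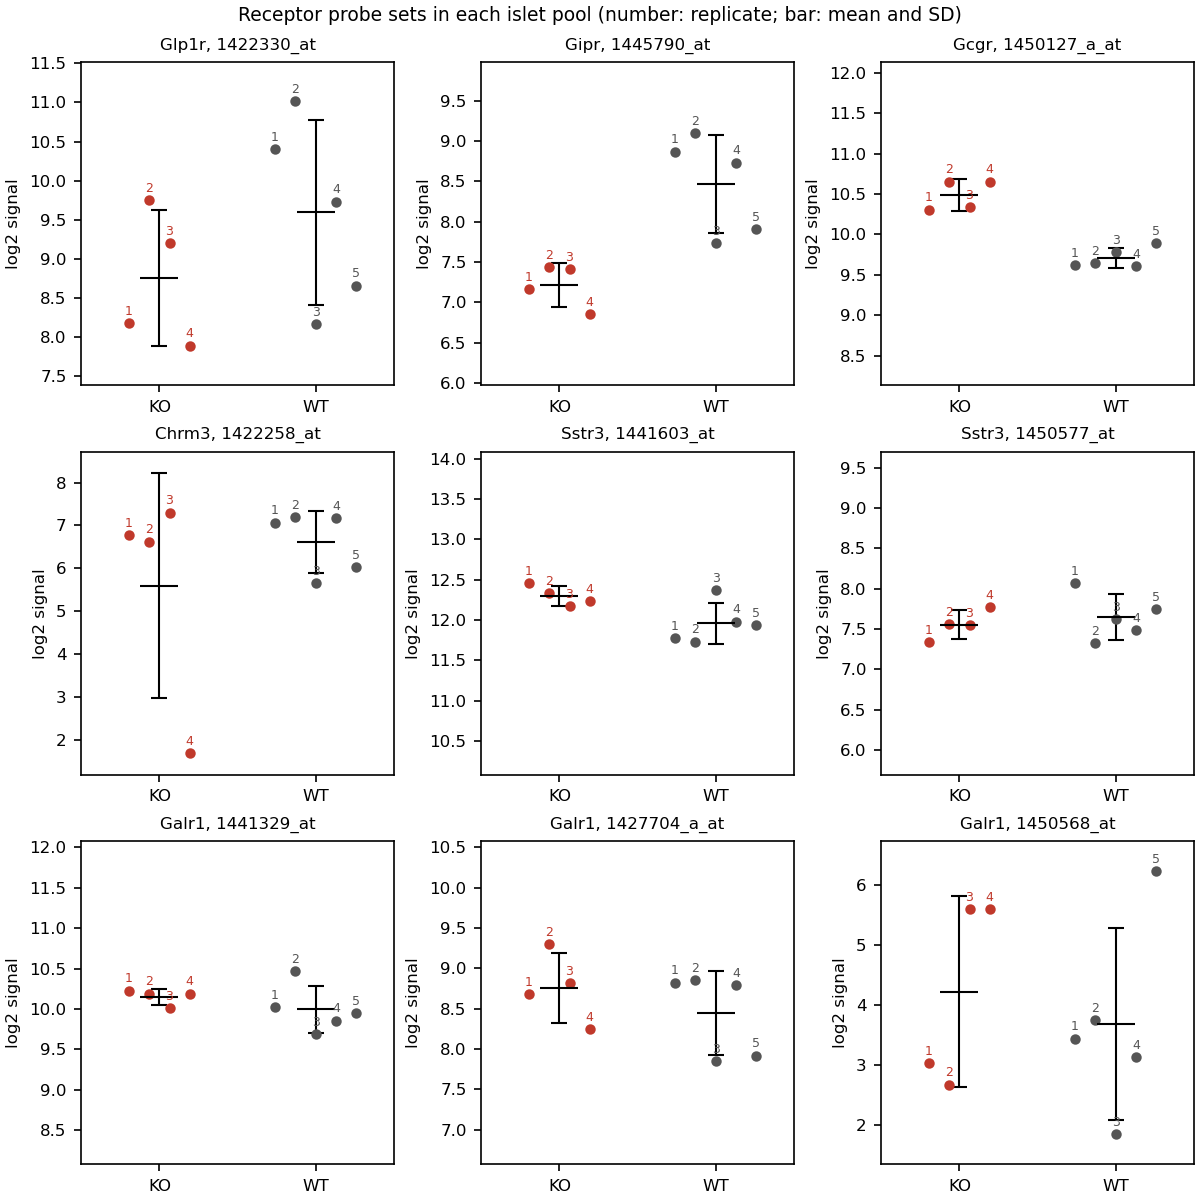
Log2 signal (vertical axis, at least 4 log2 units high in every panel) of the 9 receptor probe sets in each KO pool (red, 4 pools) and WT pool (grey, 5 pools), with the replicate number beside each point and the group mean and SD as bars. The KO pools of *Gcgr* all lie above its WT pools, the KO pools of *Gipr* all lie below its WT pools, and the groups overlap in the other 7 probe sets. *Chrm3* was near the bottom of the scale in KO replicate 4.

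The RNA came from whole islets, and some cell type markers moved with genotype. The mean log2 signal of 12 stromal markers ranged from 9.59 to 10.20 in KO pools and from 8.24 to 9.25 in WT pools (7 of the 12 rose; exact two-sided permutation p = 0.0159 over every split of the arrays, adjusted p = 0.0249 over 11 cell types). The mean of 10 beta cell markers ranged from 12.96 to 13.12 in KO pools and from 13.41 to 13.61 in WT pools (5 of the 10 fell; exact p = 0.00794, the smallest that this design allows). The 5 that fell were *Slc2a2* (-1.33), *Nkx6-1* (-0.95), *Ucn3* (-0.85), *Slc30a8* (-0.79) and *Pdx1* (-0.62). The other 5 were not called: *Ins2* (-0.05), *Iapp* (-0.12), *G6pc2* (-0.24), *Abcc8* (-0.01) and *Kcnj11* (0.27). The beta cell mean thus rests on part of its list. Means of delta cell, endothelial, Schwann cell, ductal and neuronal markers were also higher in KO pools, by 0.45, 0.30, 0.88, 0.92 and 0.50 log2 units. In the same order, 2 of 3, 9 of 10, 3 of 4, 3 of 3 and 3 of 4 of the markers had differences above 0. The counts called were 1, 0, 1, 0 and 1, and *Sst*, of the delta list, differed by -0.04. Means of alpha and PP cell markers differed by 0.14 and -0.04. No marker of any of the 11 lists was at the floor of the scale on any array, and *Ins2*, *Gcg* and *Sst* marked the preparations as islets. Without KO replicate 4, 4 of the 11 lists in place of 7 passed the adjusted threshold. With 5 WT against 3 KO pools the smallest possible exact p is 0.0179, so lists can be lost for that reason alone. In whole-islet RNA, fewer cells of a type and less RNA per cell cannot be told apart. *Rptor*, the gene encoding *Raptor*, was lower in KO islets (8.75 ± 0.32 in KO and 9.47 ± 0.21 in WT, SD; log2 difference -0.72 ± 0.17, SE, limma adjusted p = 0.0410), and 2 other probe sets of it differed by -0.41 and 0.65 without passing the test. Its call was kept in 2 of the 9 fits that each left out 1 pool, those without KO replicate 3 (-0.87) or WT replicate 4 (-0.78).

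*Gcgr* encodes the glucagon receptor, a Gs-coupled class B receptor through which glucagon from alpha cells can amplify insulin release. Its probe set 1450127_a_at had log2 signals of 10.31, 10.66, 10.34 and 10.66 in KO replicates 1 to 4, against 9.62, 9.65, 9.78, 9.61 and 9.89 in WT replicates 1 to 5. The lowest KO pool stood above the highest WT pool, as was the case for 1014 tested genes (7.43%). The mean was 10.49 ± 0.19 in KO and 9.71 ± 0.12 in WT islets (SD). The log2 difference of 0.78 ± 0.11 (SE, 95% confidence interval 0.52 to 1.04) corresponds to 1.72-fold (1.44 to 2.05) and had an adjusted p of 0.00654 in limma's test. Every fit that left out 1 pool kept the call, with differences between 0.72 and 0.84. When the mean of the stromal markers was added as a covariate, the difference was 0.49 ± 0.22 (SE) and the call was lost (limma adjusted p = 0.396). In that fit 3 genes in all were called, and the stromal means of KO and WT pools did not overlap.

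*Gcgr* varied little from pool to pool. Its within-group SD of 0.16 log2 units was at the 25.7th percentile of tested genes. *Dusp6*, *Ttc25* and *Jag1* had the signals most like it over the 9 arrays, with Pearson r of 0.989, 0.976 and 0.973. These correlations pool both genotypes, and all 3 genes were also higher in KO islets with no overlap of the groups, so they describe a difference between genotypes in the same libraries. *Dusp6*, a phosphatase of ERK kinases, was 1.89-fold higher (limma adjusted p = 0.00435). *Ttc25*, which encodes a docking factor for ciliary dynein, was 3.86-fold higher (limma adjusted p = 0.00361), and *Jag1*, a Notch ligand, was 1.59-fold higher (limma adjusted p = 0.00804).

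*Gipr* encodes the receptor for GIP, which is Gs-coupled and amplifies insulin release after meals. The signals of probe set 1445790_at were 7.17, 7.43, 7.41 and 6.86 in KO replicates 1 to 4, against 8.87, 9.09, 7.73, 8.73 and 7.91 in WT replicates 1 to 5. All KO pools stood below all WT pools, as they did for 689 tested genes (5.05%), but the gap between KO replicate 2 and WT replicate 3 was small, and WT pools split into 3 high and 2 low ones. The mean was 7.22 ± 0.27 in KO and 8.47 ± 0.61 in WT islets (SD). The log2 difference of -1.25 ± 0.30 (SE, 95% confidence interval -1.92 to -0.58) means a signal 2.38-fold lower in KO islets (1.49 to 3.79), with an adjusted p of 0.0433 in limma's test.

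This call sat close to the threshold. It was kept without WT replicate 3 (-1.43, limma adjusted p = 0.0229) or WT replicate 5 (-1.39, limma adjusted p = 0.0361), the 2 low WT pools. It was lost without KO replicate 1, 2, 3 or 4 (limma adjusted p = 0.110, 0.0798, 0.0829 and 0.106) and without WT replicate 1, 2 or 4 (limma adjusted p = 0.0931, 0.0749 and 0.0864), while the difference stayed between -1.32 and -1.09 in these 7 fits. Without the filter on dim genes limma gave an adjusted p of 0.0821. With this stromal covariate the difference turned to 0.20 ± 0.34 (SE, limma adjusted p = 0.842).

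*Glp1r* encodes the receptor for GLP-1, the second incretin and the target of incretin-based diabetes drugs. Probe set 1422330_at had signals of 8.18, 9.75, 9.20 and 7.89 in KO replicates 1 to 4, against 10.41, 11.02, 8.16, 9.73 and 8.66 in WT replicates 1 to 5. The groups overlapped widely, with WT replicates 3, 4 and 5 inside the range of the KO pools. The log2 difference was -0.84 ± 0.63 (SE, 95% confidence interval -2.27 to 0.59; limma adjusted p = 0.497), an interval that spans a signal 4.82-fold lower and one 1.51-fold higher in KO islets. Its within-group SD of 1.06 was at the 95.9th percentile of tested genes. With the stromal covariate its difference turned to 2.14 ± 0.79 (SE, limma adjusted p = 0.327).

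The 3 class B receptors were then compared with each other by the difference of their log2 signals within each array, which asks whether their changes differ. A level of 1 probe set cannot be set against that of another, but the change of this difference between genotypes can be read. *Gcgr* minus *Gipr* was 3.14, 3.22, 2.93 and 3.80 in KO replicates 1 to 4, against 0.75, 0.55, 2.05, 0.87 and 1.98 in WT replicates 1 to 5. The mean of this difference was 2.03 log2 units higher in KO islets (4.08-fold). Since the KO pools lay above all WT pools for *Gcgr* and below them for *Gipr*, the groups could not overlap in this pair. A small p in an exact test was thereby fixed in advance. The shift is a description that restates the values of the 2 receptors. *Gcgr* minus *Glp1r* shifted by 1.62 log2 units in the same direction, but the groups overlapped (1.73 ± 0.87 in KO and 0.12 ± 1.29 in WT islets, SD; p = 0.0794 in the exact two-sided permutation test, 0.119 when adjusted over 3 pairs). For the 2 incretin receptors, *Gipr* minus *Glp1r* was -1.54 ± 0.64 in KO and -1.13 ± 0.60 in WT islets (SD), a difference of -0.41 (exact p = 0.357). It was not shown that the 2 incretin receptors changed by different amounts.

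**Figure D2:**
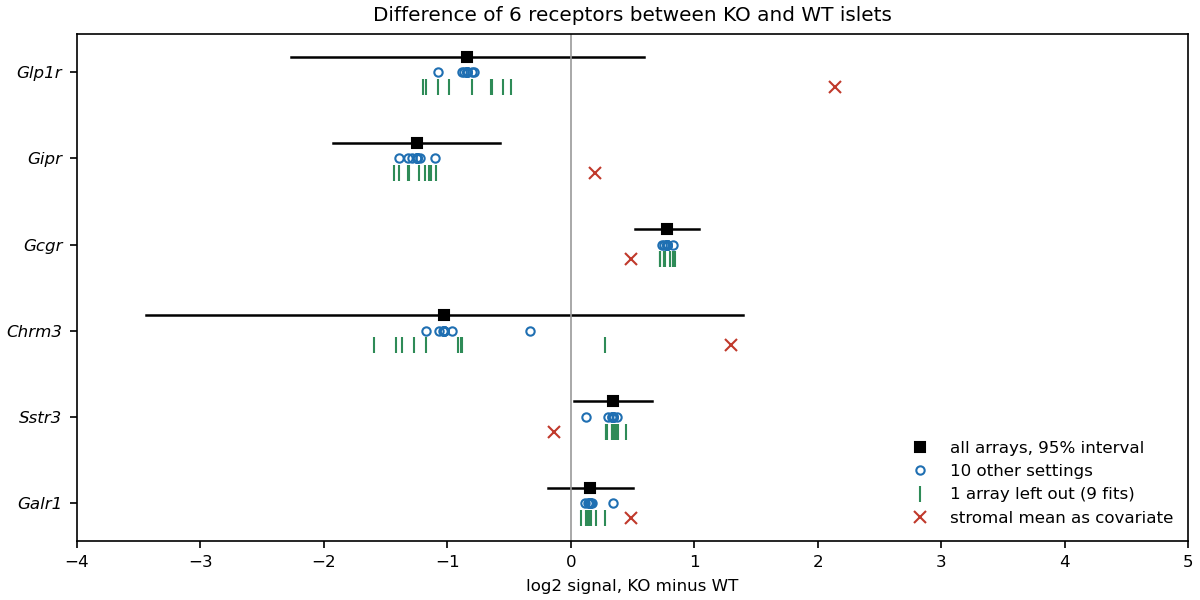
Difference in log2 signal between KO and WT islets (horizontal axis, KO minus WT) of 6 receptors, with the fit of all 9 arrays and its 95% confidence interval (square and line), 10 other settings (open circles), 9 fits with 1 array left out (green ticks) and the fit with the stromal marker mean as a covariate (cross). *Gcgr* stayed above 0 throughout. *Gipr* stayed below 0 except with the stromal covariate, and the left-out array moved *Chrm3* most.

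*Chrm3* encodes the muscarinic M3 receptor, through which acetylcholine from nerves promotes insulin release. Its signals at probe set 1422258_at were 6.77, 6.62, 7.30 and 1.68 in KO replicates 1 to 4, against 7.07, 7.19, 5.64, 7.17 and 6.03 in WT replicates 1 to 5. KO replicate 4 alone stood far below every other array, at a level near the floor of the scale, and the other 3 KO pools lay inside or just above the WT range. The log2 difference of -1.02 ± 1.07 (SE, 95% confidence interval -3.44 to 1.39; limma adjusted p = 0.642) rested on that pool, and without KO replicate 4 it was 0.28 (limma adjusted p = 0.756). The within-group SD of 1.80 was at the 99.8th percentile of tested genes.

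The 2 Gi-coupled receptors varied less between pools. *Sstr3* encodes a somatostatin receptor that sits on the primary cilium of islet cells. Its signals at 1441603_at were 12.46, 12.33, 12.17 and 12.23 in KO replicates 1 to 4, against 11.78, 11.73, 12.37, 11.98 and 11.94 in WT replicates 1 to 5. Only WT replicate 3 reached into the KO range. The log2 difference of 0.34 ± 0.14 (SE, 95% confidence interval 0.03 to 0.65) had a limma adjusted p of 0.193, and its unadjusted p of 0.0363 was in a range (under 0.05) that 21.8% of tested genes reached. A second probe set, 1450577_at, had 7.55 ± 0.17 in KO and 7.65 ± 0.28 in WT islets (SD) and differed by -0.10 ± 0.17 (SE), so that the 2 probe sets of *Sstr3* pointed in opposite directions.

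*Galr1* encodes a galanin receptor that inhibits insulin release. Its brightest probe set, 1441329_at, had signals of 10.23, 10.19, 10.00 and 10.19 in KO replicates 1 to 4, against 10.02, 10.47, 9.68, 9.85 and 9.94 in WT replicates 1 to 5. KO pools were tightly grouped inside the wider WT range. The log2 difference was 0.16 ± 0.15 (SE, limma adjusted p = 0.606). Probe set 1427704_a_at had 8.68, 9.30, 8.82 and 8.24 in KO and 8.82, 8.85, 7.85, 8.79 and 7.92 in WT islets, a difference of 0.31 ± 0.31 (SE), and the dim 1450568_at differed by 0.54 ± 0.98 (SE). All 3 probe sets had small positive differences that did not pass the test.

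Several of the receptors ranked the pools of 1 genotype alike. *Glp1r*, *Gipr* and the *Galr1* probe set 1427704_a_at ranked the pools identically, from highest to lowest as replicates 2, 3, 1 and 4 in KO and as replicates 2, 1, 4, 5 and 3 in WT islets. *Chrm3* was also lowest in KO replicate 4 and in WT replicates 3 and 5, whereas *Gcgr* was highest in WT replicates 5 and 3 and was not low in KO replicate 4. The brightest *Galr1* probe set, 1441329_at, ranked KO replicates as 1, 4, 2 and 3, the order of the stromal mean, and WT replicates as 2, 1, 5, 4 and 3. The dim *Galr1* probe set 1450568_at ranked KO replicates as 4, 3, 1 and 2 and WT replicates as 5, 2, 1, 4 and 3. The stromal mean was 10.20, 9.96, 9.59 and 10.05 in KO replicates 1 to 4 and 8.28, 8.24, 9.03, 8.57 and 9.25 in WT replicates 1 to 5, so that the 2 WT pools with low incretin receptor signals were those with the highest stromal means among WT. Among KO pools the 2 with the highest stromal means, replicates 1 and 4, were likewise the 2 with the lowest signals of *Glp1r*, *Gipr* and *Galr1* probe set 1427704_a_at. The acinar mean ranged from 8.92 to 12.87 in KO and from 9.38 to 12.67 in WT pools. All these values come from the same 9 libraries, and the part of tissue make-up in the receptor signals was not tested beyond the covariate fits given above.

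**Figure D3:**
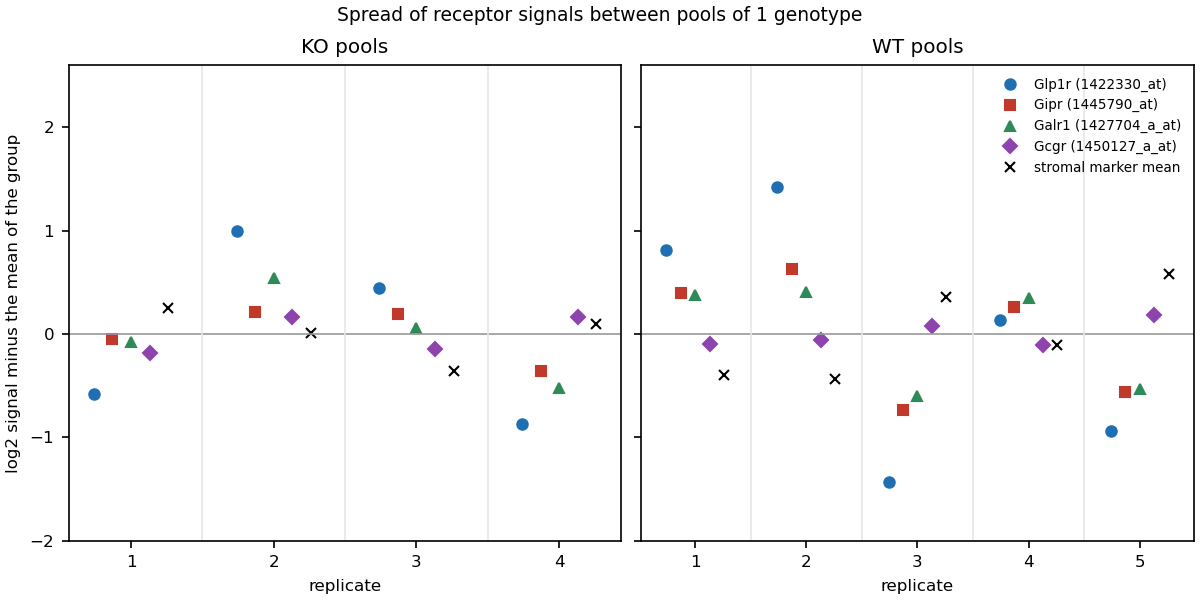
Deviation of each pool from the mean of its own genotype (vertical axis, log2 units) for *Glp1r*, *Gipr*, *Galr1* (1427704_a_at), *Gcgr* and the stromal marker mean, in 4 KO pools (left) and 5 WT pools (right). *Glp1r*, *Gipr* and this *Galr1* probe set rank the pools alike within each genotype, with WT replicates 3 and 5 low, where the stromal marker mean is highest among WT pools. *Galr1* probe sets 1441329_at and 1450568_at, not drawn, rank the pools otherwise.

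A list of 9 ligand genes held genes of peptide ligands, *Vip*, *Adcyap1* and *Cort* among them, and 2 genes of acetylcholine synthesis and transport. Of the 9 genes, 6 were tested and none was called by limma or by an unpaired t-test, both with Benjamini-Hochberg adjustment. The paper's methods name an unpaired t-test at p under 0.05 and no such adjustment. By limma, 2 of the 6 had an unadjusted p under 0.05, *Vip* (given below) and *Slc18a3*, of acetylcholine transport. *Slc18a3* had 7.02 ± 0.31 in KO and 5.09 ± 1.41 in WT islets (SD), with no overlap of the groups. Its difference of 1.93 ± 0.64 (SE) did not pass the adjusted threshold (limma adjusted p = 0.115). *Gcg*, the glucagon and GLP-1 precursor, had 15.20 ± 0.08 in KO and 15.30 ± 0.13 in WT islets (SD), and *Sst*, somatostatin, had 15.17 ± 0.10 in KO and 15.21 ± 0.09 in WT islets. The differences were -0.10 ± 0.09 and -0.04 ± 0.09 (SE). Both transcripts were near the top of the scale, where bright signals can be compressed. *Gal*, galanin, had 6.93 ± 0.82 in KO and 6.30 ± 0.79 in WT islets (SD), a difference of 0.63 ± 0.48 (SE) that did not pass the test. *Gip* itself was among the dim genes left out of the test, at 2.97 ± 0.50 in KO and 3.59 ± 1.23 in WT islets (SD). The lowest p in the list was that of *Vip*, a neuropeptide of islet nerves whose own receptors are not among the 9 described here. It had 12.57, 12.32, 12.51 and 12.80 in KO islets, against 11.61, 9.01, 10.90, 10.64 and 11.97 in WT islets, a difference of 1.72 ± 0.52 (SE) that did not pass the adjusted threshold (limma adjusted p = 0.0891), although the groups did not overlap. The neuronal marker mean was higher in the same KO pools (10.62 to 10.84 in KO and 9.74 to 10.43 in WT). Of its 4 markers 3 had differences above 0, *Elavl4* was lower (-0.34) and *Prph* alone was called (1.63). The part of this mean in the *Vip* signal was not tested.

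Other receptors of the same 3 couplings gave 2 calls, both rises, where 3.67% of all tested genes rose. Of 15 further Gs-coupled receptors 6 were tested, and *Ptger4*, the prostaglandin E2 receptor EP4, rose (8.15 ± 0.20 in KO and 7.34 ± 0.23 in WT, SD, difference 0.82 ± 0.14, SE, limma adjusted p = 0.0131). None of the 6 fell, and their median was 0.11. Of 20 further Gi-coupled receptors 8 were tested, with a median of 0.45, and *Ptger3*, the EP3 receptor, rose 7.56-fold (9.74 ± 0.28 in KO and 6.82 ± 0.52 in WT, SD), the widest difference among all the genes of these lists. Neither *Sstr2* nor *Sstr5*, further somatostatin receptors, was called (0.10 and -0.24). Of 15 further Gq-coupled receptors 8 were tested and none was called by limma or by the adjusted t-test, with a median of 0.40. The lowest p there was that of *Ffar2*, a short-chain fatty acid receptor, at 10.66 ± 0.21 in KO and 10.19 ± 0.18 in WT islets (SD), a difference of 0.47 ± 0.13 (SE, limma adjusted p = 0.0664), and 2 of the 8 had an unadjusted p under 0.05. *Ptger4* and *Ptger3* kept their calls in all 9 fits with 1 pool left out. A second, dimmer probe set of each differed by 0.40 ± 1.16 and 1.32 ± 1.30 (SE), with overlap of the groups. Each call reported for these receptors and for the coupling genes that follow was lost with the stromal covariate.

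The G proteins that couple the receptors gave 3 calls, all rises, where 3.67% of all tested genes rose. Among 12 tested alpha subunits, *Gnas*, the Gs subunit used by the incretin and glucagon receptors, differed by 0.03 and *Gnaq* by 0.01, and the median was -0.0033. The 1 alpha subunit called was *Gna14*, of the Gq class, at 7.64 ± 0.19 in KO and 6.82 ± 0.17 in WT islets (SD), a difference with no overlap of the groups (0.82 ± 0.12, SE, limma adjusted p = 0.00739). Differences at dimmer probe sets of *Gna14* were 1.76 ± 0.90 and 0.98 ± 0.76 (SE), each with overlap of the groups. The 12 tested beta and gamma subunits had a median of 0.23, 8 of the 12 differences were above 0 and 4 had an unadjusted p under 0.05. Of these subunits 2 rose, *Gng2* (0.59 ± 0.10, SE, limma adjusted p = 0.0111) and *Gnb4* (0.75 ± 0.18, SE, limma adjusted p = 0.0439). Dimmer probe sets of *Gng2* differed by 0.59, 1.04 and 0.65, each with overlap of the groups. Those of *Gnb4* differed by 0.48, with overlap, and by 0.97, without. The call of *Gnb4* was kept in 1 of 9 fits with 1 pool left out, that without WT replicate 5 (limma adjusted p = 0.0482).

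Among 20 tested regulators of receptor activity, the longest of these lists, 3 rose and 1 fell, where 6.3% of all tested genes were called. Their median was 0.15, and 8 of the 20 had an unadjusted p under 0.05. *Grk5*, a kinase that phosphorylates active receptors so that arrestins bind, fell 2.21-fold. Its signals were 8.23, 8.94, 9.06 and 9.01 in KO islets, against 10.14, 9.86, 10.06, 9.96 and 9.75 in WT islets (difference -1.15 ± 0.18, SE, limma adjusted p = 0.00804). A second probe set of *Grk5* had 7.25 ± 0.26 in KO and 8.52 ± 0.27 in WT islets (SD) and differed by -1.27 ± 0.18 (SE), and the call was kept in every fit with 1 pool left out. *Ramp2*, an accessory protein of class B receptors, rose (10.38 ± 0.15 in KO and 9.79 ± 0.14 in WT, SD, difference 0.59 ± 0.11, SE, limma adjusted p = 0.0170), a call lost without KO replicate 3 (limma adjusted p = 0.0528).

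*Rgs4*, which speeds the switching off of Gi and Gq proteins, rose 1.96-fold (limma adjusted p = 0.0222). Its values were 10.43, 10.69, 10.46 and 10.53 in KO islets, against 9.73, 8.86, 9.75, 9.76 and 9.68 in WT islets. The call was lost without any 1 of KO replicates 1 to 4 (limma adjusted p = 0.0579, 0.0639, 0.0585 and 0.0579). At dimmer probe sets of *Rgs4* the differences were 0.59 ± 0.32 and 1.87 ± 1.25 (SE), each with overlap of the groups. *Arrb1*, β-arrestin 1, had 7.32, 7.30, 7.59 and 7.70 in KO islets, against 5.79, 5.95, 6.57, 5.78 and 7.20 in WT islets, and rose 2.33-fold (limma adjusted p = 0.0445). WT replicate 5 came close to the KO pools, and only the fit without it kept the call among those with 1 pool left out (1.46, limma adjusted p = 0.00845). With the stromal covariate the difference of *Arrb1* was 0.01 (limma adjusted p = 0.992).

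The 17 tested second messenger effectors comprised adenylyl cyclases, phospholipase C enzymes, protein kinase A subunits, the cAMP-activated exchange factor *Rapgef3* and inositol trisphosphate receptors. None of the 17 was called by limma or by the adjusted t-test, and 3 had an unadjusted limma p under 0.05. Their median was 0.18. *Adcy6*, an adenylyl cyclase inhibited by Gi, had the lowest p (11.51 ± 0.21 in KO and 11.01 ± 0.25 in WT, SD, difference 0.51 ± 0.15, SE, limma adjusted p = 0.0844), and it passed without WT replicate 5 (0.60, limma adjusted p = 0.0455). The catalytic subunit genes *Prkaca* and *Prkacb* differed by -0.09 and -0.14.

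**Figure D4:**
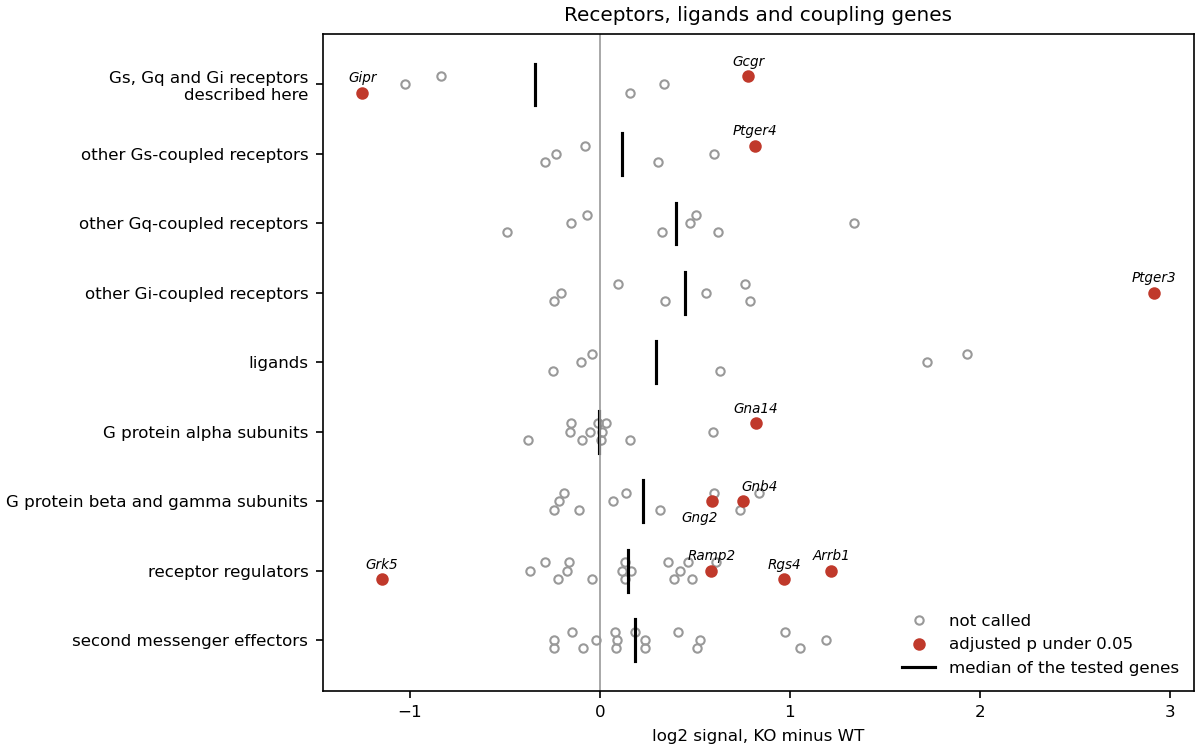
Difference in log2 signal between KO and WT islets (horizontal axis, KO minus WT) of every tested gene of the receptors described here and of 8 related lists (rows), with called genes in red and named, other genes as open circles and the median of the tested genes of a list as a black bar. *Gcgr* and *Gipr* lie on opposite sides of 0, *Ptger3* lies farthest from 0 at 2.92, and *Grk5* is the only called gene of the 8 related lists that fell.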

How the data were processed

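Islet RNA was measured on Affymetrix Mouse Genome 430 2.0 arrays. The authors deposited 1 log2 signal per probe set and array. Genespring is named in the methods. On the linear scale the trimmed mean was near 497 on every array, and signals under 1 had been set to 1. The method of summarisation or scaling was not given in the sources used here. Values were used as deposited.

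Of 45037 probe sets, 34945 are paired with 1 gene symbol by the platform annotation, 932 with several and 9160 with none here. The brightest probe set stood for a gene, and the dimmest 0.25 of 18193 genes was left out (mean under 5.51).

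The genotype effect was fitted without covariates (lmFit and eBayes of limma 3.58.1, R 4.3.3) with Benjamini-Hochberg adjustment over 13644 genes. Receptor pairs and marker means were compared by exact permutation over every split of the arrays. Scripts were tested on simulated data. The p-values measure the spread between pools, and the number of arrays limits the precision. No batch labels were used. Members and gene lists were chosen with earlier results of these data known. Named were *Rptor*, the members, the ligands *Gcg*, *Gip*, *Sst* and *Gal*, for each list the 4 or fewer called genes with the smallest p, otherwise its gene of smallest p, and the 3 genes most like the member of lowest p. Other genes were named after their values were seen (the 10 beta cell markers, *Sstr2*, *Sstr5*, *Slc18a3*, *Gnas*, *Gnaq*, *Prkaca*, *Prkacb*, *Elavl4* and *Prph*).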

Additional observations from a re-analysis of the deposited data

Results flagged for a closer look

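In 58 groups of 4 or 5 arrays, 1 per genotype and probe set or gene named, 4 held an array far from the others, and chance flags about 1 in 20 groups. *Chrm3* was lowest in KO replicate 4, at 1.68 against 6.62 to 7.30 in the other KO pools. *Gip* was highest in WT replicate 3, at 5.73, where all other WT pools were at 3.42 or lower. *Grk5* was lowest in KO replicate 1, at 8.23, and *Rgs4* was lowest in WT replicate 2, at 8.86, both on the side that widens the difference between genotypes.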

How the results depend on the processing

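Of 20 other settings, 9 of which left out 1 pool, *Gcgr* kept its direction in all and its call in 18, and *Gipr* kept its direction in 19 and its call in 6. The count of all called genes was 860 as reported, 452 without the filter on dim genes, 322 with probe sets averaged, 339 with every probe set fitted, 474 with arrays centred on the median (45.1% of them rises, in place of 58.3%), 3 with the stromal covariate, 61 with the replicate block and 372 to 800 with 1 pool left out. Rises made up 51.0% of 762 genes with quantile normalization. The 1 receptor that rose became 0 with the stromal covariate and the replicate block. The 1 receptor that fell became 0 without the filter, with probe sets averaged, with every probe set fitted and in the adjusted unpaired t-test. *Gipr* has 1 probe set, so its difference of -1.25 was the same in these settings and only its p-values changed. The count also became 0 with the stromal or the acinar covariate and with the replicate block, and was 0 to 1 with 1 pool left out. The shift of *Gcgr* against *Gipr* ranged from 1.85 to 2.23 with 1 pool left out, and 4 to 8 cell type lists passed then. The smallest possible exact p is 0.0179 without a KO pool and 0.0286 without a WT pool, which limits these counts. With the stromal covariate the direction turned for *Glp1r* (2.14), *Gipr* (0.20), *Chrm3* (1.29) and *Sstr3* (-0.14). *Chrm3* turned without KO replicate 4 (0.28, and between -1.59 and 0.28 over all fits with 1 pool left out), *Gcg* (0.045) and *Sst* (0.063) with quantile normalization, and *Sst* without KO replicate 3 (0.0056, range -0.071 to 0.0056). The cause was not tested. With probe sets averaged, *Ptger4*, *Ptger3*, *Gna14*, *Gng2*, *Gnb4*, *Rgs4* and *Arrb1* were not called. *Arrb1* has 1 probe set, and its difference of 1.22 was unchanged there. Deviations from the group mean correlated at -0.04, 0.09, 0.12 and -0.03 between same-numbered KO and WT pools. Over all pairs of a KO and a WT pool they correlated at -0.11 to 0.16. With so few pools these values cannot tell whether pools were paired by number. With the replicate block *Gcgr* differed by 0.83 (limma adjusted p = 0.0632) and *Gipr* by -1.39 (limma adjusted p = 0.0939). Dim probe sets such as that of *Chrm3* limit what could be detected.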
